A study of Mus musculus with 6 samples.

Results

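Genes of lipid synthesis were examined in the soleus, a slow, oxidative hindlimb muscle, of mice lacking the G protein subunit Gα13 in muscle. The set held 37 genes chosen by name as the enzymes and regulators of fatty acid, triglyceride and cholesterol synthesis, and all 37 were measured among 23152 genes on the arrays. Muscle knockout mice (MKO, 3 animals) carried Gna13 alleles flanked by loxP sites together with a Ckmm-Cre transgene, in which the muscle creatine kinase promoter drives Cre recombinase. Their controls (WT, 3 animals) carried the same floxed alleles without Cre, so no group had unmodified Gna13 alleles. All animals were males of 18 weeks that had fasted for 14 h, and each gave 1 soleus array. The Cre acts in muscle cells, whereas the RNA came from whole muscle, which also holds vessels, nerve, connective tissue and fat. In such bulk RNA, fewer cells of a type and less RNA per cell cannot be told apart.

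Cells make fatty acids from cytosolic acetyl-CoA, which Acly and Acss2 supply and which Acaca and Fasn build into palmitate. Elongases and desaturases then modify the chain, and acyltransferases such as Gpam and the Dgat enzymes join it to glycerol. Cholesterol is made from the same acetyl-CoA through mevalonate, squalene and lanosterol. The transcription factors SREBP-1 and SREBP-2, encoded by Srebf1 and Srebf2, switch on both routes. Scap escorts them out of the endoplasmic reticulum, and the Insig proteins hold them back when sterols are plentiful. Fasting lowers fatty acid synthesis in liver and fat, and muscle makes little fatty acid at any time, using most of what it takes up for oxidation or for triglyceride stores.

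Promoter sequences from RefSeq (GRCm38.p6), each covering 250 bases before to 50 bases after an annotated transcript start, were on hand for 29 of the 37 genes, in 41 windows. They were searched on both strands for 4 motifs. The sterol regulatory element TCACNCCAC, which SREBP proteins bind, was found in 2 of the 41 windows (4.88%), against 1.24% of 32851 windows of all genes. The E-box CACGTG was found in 7 (17.1% against 7.15%), the CCAAT box of the factor NF-Y in 26 (63.4% against 37.4%) and the GC box GGGCGG in 28 (68.3% against 35.7%). Some genes gave several windows, which can overlap. The 7 windows with an E-box belong to 6 genes, because 2 overlapping windows of Scap hold the same site. Matches of different motifs overlapped in 1 of the 41 windows, between a CCAAT box and a GC box. In the 4 windows below, sterol elements and E-boxes are in capitals. The first pair are the windows with a sterol element, beginning at -137 from the start of Hmgcs1 and at -136 from a start of Mlxipl. The second pair hold an E-box, at -143 in Hsd17b7 and at -164 from a start of Dhcr7, and belong to the cholesterol genes that were higher in every MKO array. The other windows of Dhcr7 hold no E-box. The other genes with an E-box, Elovl5, Insig1, Mlxipl and Scap, had lower means in MKO (−0.13, −0.14, −0.09 and −0.16). E-boxes thus did not go with a single direction.
Hmgcs1, chr13:119690101-119690400, plus strand: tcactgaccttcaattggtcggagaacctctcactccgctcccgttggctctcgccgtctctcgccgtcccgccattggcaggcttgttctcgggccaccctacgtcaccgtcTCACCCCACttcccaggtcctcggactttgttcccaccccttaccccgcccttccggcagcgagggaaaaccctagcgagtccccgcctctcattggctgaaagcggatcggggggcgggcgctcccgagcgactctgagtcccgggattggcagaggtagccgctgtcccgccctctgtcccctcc
Mlxipl, chr5:135106641-135106940, plus strand: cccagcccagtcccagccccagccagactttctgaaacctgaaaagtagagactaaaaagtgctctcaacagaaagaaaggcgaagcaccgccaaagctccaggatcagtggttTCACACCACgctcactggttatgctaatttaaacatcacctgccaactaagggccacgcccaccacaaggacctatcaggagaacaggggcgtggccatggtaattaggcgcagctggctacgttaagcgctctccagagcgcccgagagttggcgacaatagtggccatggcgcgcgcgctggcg
Hsd17b7, chr1:169969156-169969455, minus strand: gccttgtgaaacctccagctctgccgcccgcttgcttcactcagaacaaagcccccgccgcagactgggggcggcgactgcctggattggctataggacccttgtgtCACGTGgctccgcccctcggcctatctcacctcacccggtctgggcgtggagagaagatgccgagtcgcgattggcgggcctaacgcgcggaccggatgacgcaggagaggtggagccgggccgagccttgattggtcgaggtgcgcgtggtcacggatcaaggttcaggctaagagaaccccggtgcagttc
Dhcr7, chr7:143823149-143823448, plus strand: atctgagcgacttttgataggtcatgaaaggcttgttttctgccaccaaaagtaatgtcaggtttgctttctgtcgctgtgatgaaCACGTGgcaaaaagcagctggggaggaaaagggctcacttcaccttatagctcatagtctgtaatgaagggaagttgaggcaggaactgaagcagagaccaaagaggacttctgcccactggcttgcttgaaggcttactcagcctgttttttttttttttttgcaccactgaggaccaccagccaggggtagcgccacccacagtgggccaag
A match of letters is a description and does not show that a factor binds there.

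Values are log2 intensities after robust multi-array averaging (RMA), so a difference of 1 is a 2-fold change, and a gene's value is the mean of its probe sets. The number of arrays limits the precision, and p-values reflect the spread between these animals. Array medians over all probe sets lay between 4.87 and 4.93 in MKO and between 4.92 and 4.95 in WT. Of 7 Gna13 probe sets, 17257825 was lower in every MKO array, at 3.43, 4.25 and 4.33 in MKO against 5.48, 6.23 and 6.16 in WT, and 3 others were higher in every MKO array, with differences of 0.51 to 0.67. The mean over the 7 was 6.77 in MKO and 6.73 in WT, and which exon each reads is not known here. Slow fibre and muscle markers identified the tissue. Their mean over 8 genes was 10.21 to 10.31 in MKO and 10.21 to 10.35 in WT. The mean over 4 hepatocyte genes was 3.82 to 3.94 in MKO and 3.47 to 3.81 in WT, higher in every MKO array. Among these dim genes Alb differed by 0.55 (unadjusted p = 0.00578 in limma, adjusted p = 0.9997), with its groups apart. MKO replicate 1 had the lowest mean over the 37 lipid synthesis genes, at 5.86, against 6.04 and 6.02 in the other MKO arrays and 5.998 to 6.05 in WT.

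None of the 37 genes passed an adjusted p of 0.05 in limma, and none of all genes did (0 of 23152, 0.0%). The smallest adjusted p among them was 0.9997. At an unadjusted p under 0.05, Dgat2 was higher in MKO (1 of 37, against 1.92% of all genes) and Scd2 and Fads2 were lower (2 of 37, against 2.41%). In either direction that is 8.11% of the set, against 4.33% of all genes. The 3 MKO arrays lay above the 3 WT arrays for Acss2, Hsd17b7 and Dhcr7 (3 of 37, against 4.26% of all genes) and below them for Scd2 and Srebf2 (2 of 37, against 4.99%). Of the 37, 14 had a higher and 23 a lower mean in MKO, with a median log2 fold change of −0.08, against −0.01 over all genes. Of all 23152 genes, 10778 had a higher and 12374 a lower mean. Over all genes above the median level, where 33 of the 37 lie, the median was −0.038. The median of the 37 was −0.02 without MKO replicate 1. By role, 5 of 6 regulators and 10 of 13 fatty acid genes had lower means in MKO, with medians of −0.15 and −0.13. Of the triglyceride genes 1 of 3 was lower (median 0.09), and of the cholesterol genes 7 of 15 (median 0.03). With the median of a gene's probe sets in place of the mean, 3 of 6 regulators were lower and their median was −0.02. Without MKO replicate 1, 7 of 13 fatty acid genes were lower, with a median of −0.02, and without MKO replicate 2, 11 were, with a median of −0.25. The cholesterol median was below 0 in 5 alternatives, among them that without MKO replicate 2 (−0.0061).

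The 95% intervals apply to a gene's mean over its probe sets and do not bound the change of a single probe set or exon. For Gna13 itself that mean differed by 0.04 (95% interval −0.24 to 0.33) although probe set 17257825 differed by −1.95. On this mean, all 37 intervals excluded a 2-fold change in either direction, and 31 excluded a 1.5-fold change. The 6 that reached 1.5-fold were those of Fasn, Scd1, Scd2, Fads2, Cyp51 and Hsd17b7. The lowest bound of any gene was −0.81, for Fads2, and the highest 0.71, for Cyp51. The spread within groups had a median SD of 0.17 for the set and 0.19 for all genes.

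**Figure D1:**
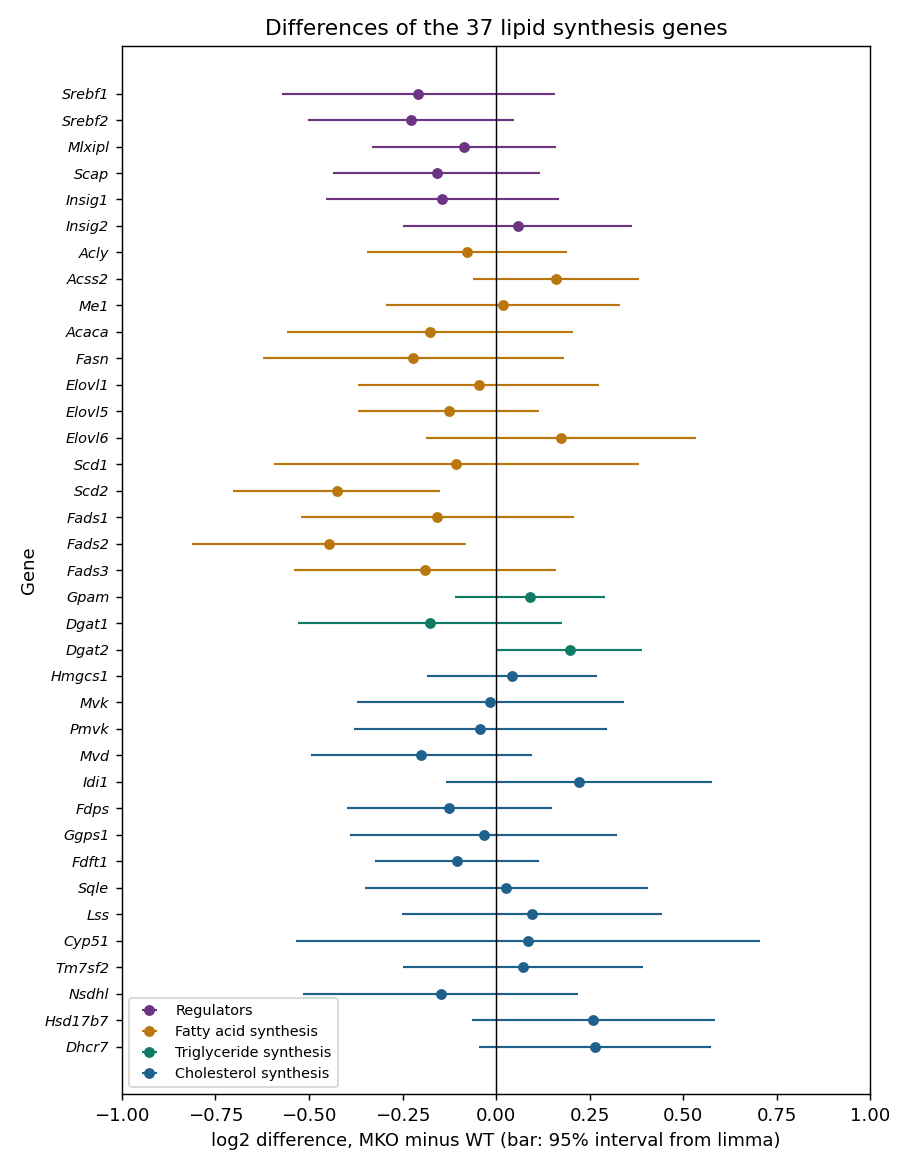
Log2 difference, MKO minus WT, of each of the 37 genes, coloured by role, with 95% intervals from limma over 3 MKO and 3 WT arrays. The intervals of Scd2 and Fads2 lie below 0 and that of Dgat2 lies just above it, from 0.003 to 0.39.

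Among the regulators, Srebf2, which encodes SREBP-2, the main activator of cholesterol genes, stood at 5.92, 5.79 and 5.89 in MKO and at 6.03, 6.24 and 5.999 in WT. All MKO arrays were below the WT arrays. The log2 fold change was −0.23 (SE 0.13, unadjusted p = 0.0966 in limma), and 12 of its 18 probe sets were lower. Srebf1, for the lipogenic SREBP-1, was at 5.18, 5.59 and 4.99 in MKO and at 5.33, 5.44 and 5.62 in WT. MKO replicate 2 lay among the WT arrays and the other MKO arrays below them, and the difference was −0.21 (SE 0.17). Taking the median over its 26 probe sets gave 0.02.

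None of the genes for proteins that hold or release SREBP passed the test, nor did Mlxipl. Scap, the SREBP escort, was at 6.37, 6.62 and 6.78 in MKO and at 6.66, 6.82 and 6.77 in WT, a difference of −0.16 (SE 0.13) that was 0.16 with the median of probe sets. Insig1, itself a classical SREBP target that retains Scap in the endoplasmic reticulum, was at 6.17, 6.47 and 6.51 in MKO and at 6.64, 6.66 and 6.27 in WT (−0.14, SE 0.14). The groups of both genes overlapped. Its relative Insig2, which is under other control in liver, was at 6.02, 6.24 and 6.41 in MKO and at 6.09, 6.35 and 6.05 in WT (0.06, SE 0.14). Mlxipl, which encodes the glucose-responsive factor ChREBP, was at 7.59, 7.36 and 7.40 in MKO and at 7.66, 7.37 and 7.59 in WT (−0.09, SE 0.11). These groups overlapped too.

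The suppliers of acetyl-CoA and NADPH went different ways. Acss2, which makes acetyl-CoA from acetate, was at 7.69, 7.73 and 7.69 in MKO and at 7.68, 7.54 and 7.42 in WT. The MKO arrays lay together, above all WT arrays, narrowly so over WT replicate 1, and the difference was 0.16 (SE 0.10, unadjusted p = 0.142 in limma). It was −0.06 when the median of its 20 probe sets was taken, 13 of which were higher, and without probe set 17378360 the groups overlapped. Acly, which cleaves citrate to acetyl-CoA, was at 5.73, 5.89 and 5.90 in MKO and at 5.92, 5.94 and 5.89 in WT (−0.08, SE 0.12), with overlap. Me1, the malic enzyme that yields NADPH, differed by 0.02 (SE 0.14).

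The enzymes that build palmitate had lower means in MKO with overlapping groups. Acaca, the carboxylase that makes the malonyl-CoA used for synthesis, was at 4.71, 5.38 and 5.28 in MKO and at 5.30, 5.38 and 5.23 in WT. Only MKO replicate 1 lay clearly below the rest, and the difference of −0.18 (SE 0.18) was 0.03 without it. Fasn, the fatty acid synthase, was at 5.07, 5.78 and 5.10 in MKO and at 5.49, 5.46 and 5.68 in WT (−0.22, SE 0.19). MKO replicate 2 was the highest of all arrays and the other MKO arrays were the lowest. Of the elongases, Elovl6, which extends palmitate to stearate, differed by 0.17 (SE 0.17), Elovl5, which acts on polyunsaturated chains, by −0.13 (SE 0.11) and Elovl1, which acts on very long chains, by −0.05 (SE 0.15).

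The desaturases held the lowest p of the set. Scd2, a stearoyl-CoA desaturase that places the first double bond and is known from brain and other non-hepatic tissues, was at 5.92, 5.95 and 6.03 in MKO and at 6.52, 6.47 and 6.20 in WT. The groups did not overlap, with MKO lower. The log2 fold change was −0.43 (SE 0.13, 95% interval −0.70 to −0.15, 1.34-fold lower), with an unadjusted p of 0.00560 in limma, rank 112 of 23152 genes, and an adjusted p of 0.9997. All 5 of its probe sets had lower means in MKO, with differences of −0.83 to −0.17, and its unadjusted p stayed between 0.00243 and 0.0363 over 15 alternatives. Leaving out the most different probe set, 17359697, gave −0.32, and WT replicate 3 at 6.33 then lay below MKO replicate 2 at 6.36. Markers of fibroblasts, macrophages and endothelium also had mostly lower means in MKO, as did 12374 of all 23152 genes. Their part in the result was not tested. Of 7 fibroblast markers 6 had lower means, and the mean over the list was 7.39 to 7.84 in MKO and 7.73 to 8.13 in WT. Of 6 macrophage markers 5 were lower, with list means of 4.98 to 5.20 in MKO and 5.19 to 5.49 in WT. All 6 endothelial markers were lower, with list means of 6.83 to 7.23 in MKO and 7.04 to 7.46 in WT. The groups overlapped in all 3 lists, and MKO replicate 1 was lowest in each, as it was in the mean over the 37 lipid synthesis genes. Cldn5 of endothelial tight junctions (−0.73, SE 0.15), the macrophage gene Cd68 (−0.82, SE 0.26) and the fibroblast receptor gene Pdgfra (−0.34, SE 0.14) had the smallest p in their lists. Each was the only gene of its list at an unadjusted p under 0.05 in limma. The other endothelial markers differed by −0.24 to −0.07, the other macrophage markers by −0.18 to 0.07 and the other fibroblast markers by −0.39 to 0.01. With the median over probe sets Pdgfra differed by −0.0038, and without WT replicate 2 Cd68 differed by −0.50. None of these genes passed the adjusted threshold. Of 6 measured myelin markers 4 had higher means in MKO, with list means of 4.54 to 4.69 in MKO and 4.41 to 4.61 in WT.

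Fads2, the delta-6 desaturase that starts the route to long polyunsaturated fatty acids, was at 4.70, 4.66 and 4.99 in MKO and at 4.93, 5.41 and 5.35 in WT. MKO replicate 3 lay above WT replicate 1, so the groups overlapped, and the difference was −0.45 (SE 0.17, unadjusted p = 0.0203 in limma, adjusted p = 0.9997). This rested on 1 of its 10 probe sets. Probe set 17362599 was at 0.93, 0.95 and 1.91 in MKO and at 4.42, 5.29 and 4.85 in WT, a difference of −3.59 (SE 0.50), while the others lay between −0.65 and 0.07. Over those 9 the gene differed by −0.10. The median over the 10 gave −0.08, and bright probe sets alone −0.0098. The MKO values of probe set 17362599 lay at the low end of the scale. Fads3 probe set 17357446 had the same 0.95 in MKO replicate 2, and Srebf1 probe set 17263544 the same 1.91 in MKO replicate 3. The size of the difference is therefore uncertain. Without MKO replicate 2, WT replicate 2 or WT replicate 3, p for the gene was 0.0714, 0.0879 and 0.0706 in limma. Fads1, the delta-5 desaturase, differed by −0.16 (SE 0.17) and Fads3, a desaturase of sphingoid bases, by −0.19 (SE 0.16), both with overlap.

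**Figure D2:**
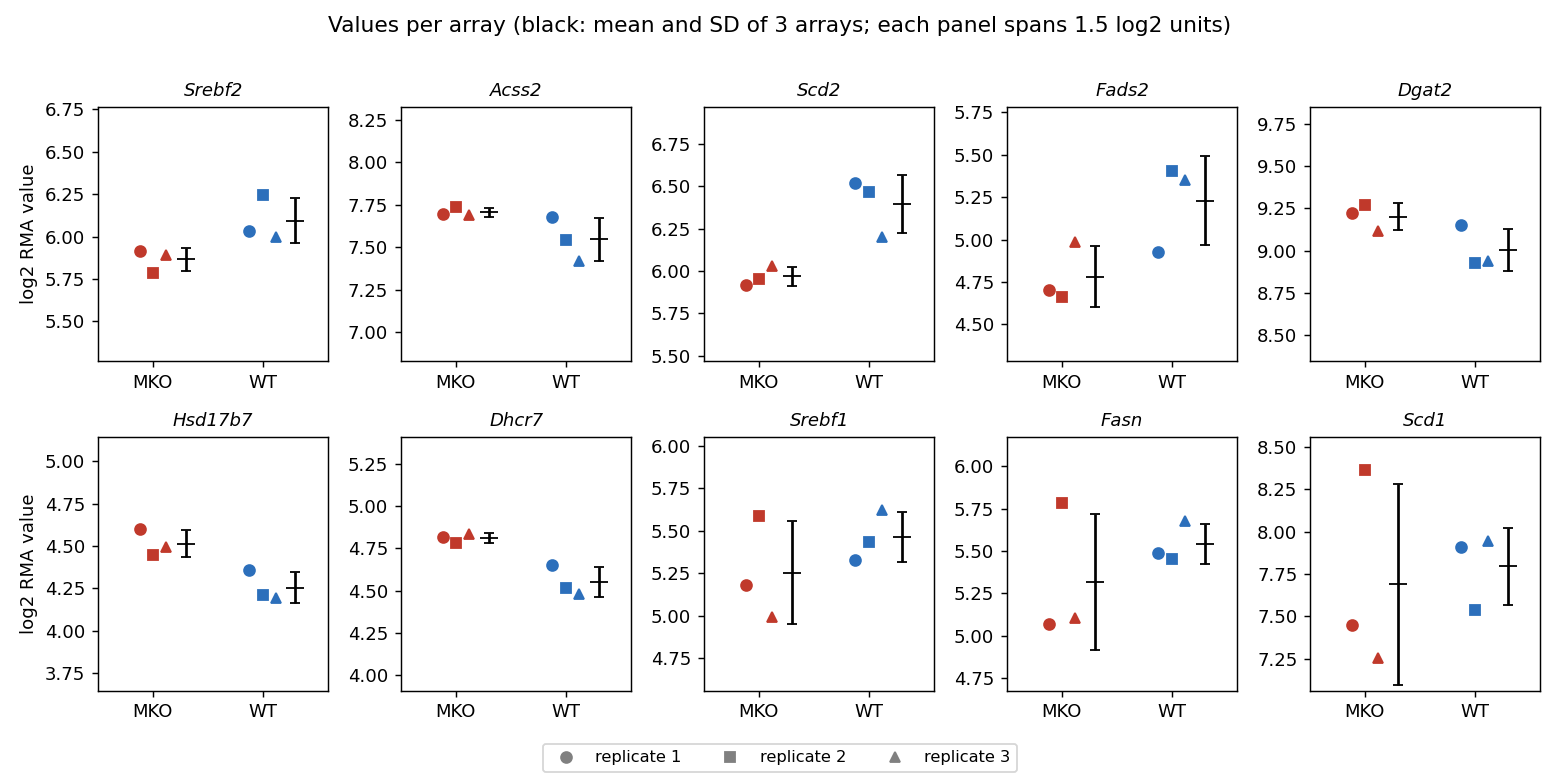
Log2 RMA value of 10 genes in each MKO array (red) and WT array (blue), with marker shape for the replicate and the mean and SD of 3 arrays in black. Scd2 and Srebf2 are lower and Acss2, Hsd17b7 and Dhcr7 higher in every MKO array, while in Srebf1, Fasn and Scd1 MKO replicate 2 stands far above the other MKO arrays.

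Scd1, the main lipogenic desaturase of liver and fat, was at 7.45, 8.37 and 7.26 in MKO and at 7.91, 7.53 and 7.95 in WT. Its range of 1.11 over the 6 arrays was the widest of the set, followed by Cyp51 at 1.04, and the highest and the lowest array were both MKO. The difference was −0.11 (SE 0.23). All 5 probe sets had lower means in MKO, with differences of −0.23 to −0.03.

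The arrays with high Scd1 were those with a high mean over the adipocyte markers. The mean over 11 adipocyte genes was 5.51, 6.03 and 5.32 in MKO and 5.71, 5.39 and 5.78 in WT, and 7 of the 11 had higher means in MKO (median 0.03), none at an unadjusted p under 0.05. Adipoq, the fat cell hormone adiponectin, named after its values were seen as a defining marker, was at 4.995, 5.65 and 4.42 in MKO and at 5.09, 4.65 and 5.24 in WT. Like Adipoq, Cfd at 6.18 and Retn at 5.83 were highest in MKO replicate 2, the array with the highest adipocyte mean. Ucp1 of brown fat was lowest in that array at 2.89 and highest in MKO replicate 1 at 3.48. Cidea was at 6.697 in MKO replicate 2, at 6.76 in MKO replicate 1 and highest in WT replicate 3 at 6.78. Fabp4, which endothelium also expresses, lay between 9.62 in MKO replicate 1 and 10.27 in WT replicate 1. Not every marker followed the mean. Over the 6 arrays the adipocyte mean correlated with Scd1 at r = 0.976 (exact permutation p = 0.00417, 0.154 after Benjamini-Hochberg adjustment over 37 genes) and a Spearman coefficient of 0.943 (exact permutation p = 0.0167, adjusted 0.206). Without MKO replicates 2 and 3, the arrays farthest from the median, r was 0.911, and within groups it was 0.985. No gene of the set passed this adjustment. With 6 arrays, even the smallest possible permutation p of a single gene could not pass 0.05 over 37 genes. The lack of a pass therefore says nothing about the strength of a correlation. Pmvk, the phosphomevalonate kinase, ran the other way at r = −0.875 and a Spearman coefficient of −0.943 (exact permutation p = 0.0306 and 0.0167, adjusted 0.565 and 0.206), and r was −0.721 without the same arrays. Fads3 had r = 0.718 and a Spearman coefficient of 0.943 (exact permutation p = 0.0931 and 0.0167, adjusted 0.689 and 0.206), and r was 0.717 without those arrays. The others with r above 0.7 were Fasn at r = 0.823 and a Spearman coefficient of 0.829 (exact permutation p = 0.0514 and 0.0583, adjusted 0.634 and 0.540) and Srebf1 at r = 0.753 and a Spearman coefficient of 0.771 (exact permutation p = 0.0875 and 0.103, adjusted 0.689 and 0.761). Without the same arrays r was 0.566 for Fasn and 0.435 for Srebf1, so both rested in part on them. Within groups r was 0.900 for Fasn and 0.846 for Srebf1. Without MKO replicate 2, which had the highest adipocyte mean, Scd1 differed by −0.44, Fasn by −0.45 and Srebf1 by −0.38 (unadjusted p = 0.0112, 0.0153 and 0.0460 in limma), with adjusted p of 0.9999 each. That array was also the highest MKO array for each of these genes, so leaving it out had to lower them. Without MKO replicate 3, which had the lowest adipocyte mean, they differed by 0.11, −0.11 and −0.08 (unadjusted p = 0.615, 0.575 and 0.659 in limma). MKO replicate 3 was the lowest array for Scd1 and Srebf1 and near the lowest for Fasn. Leaving it out therefore had to raise their MKO means. The part of fat cells in these values was not tested.

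**Figure D3:**
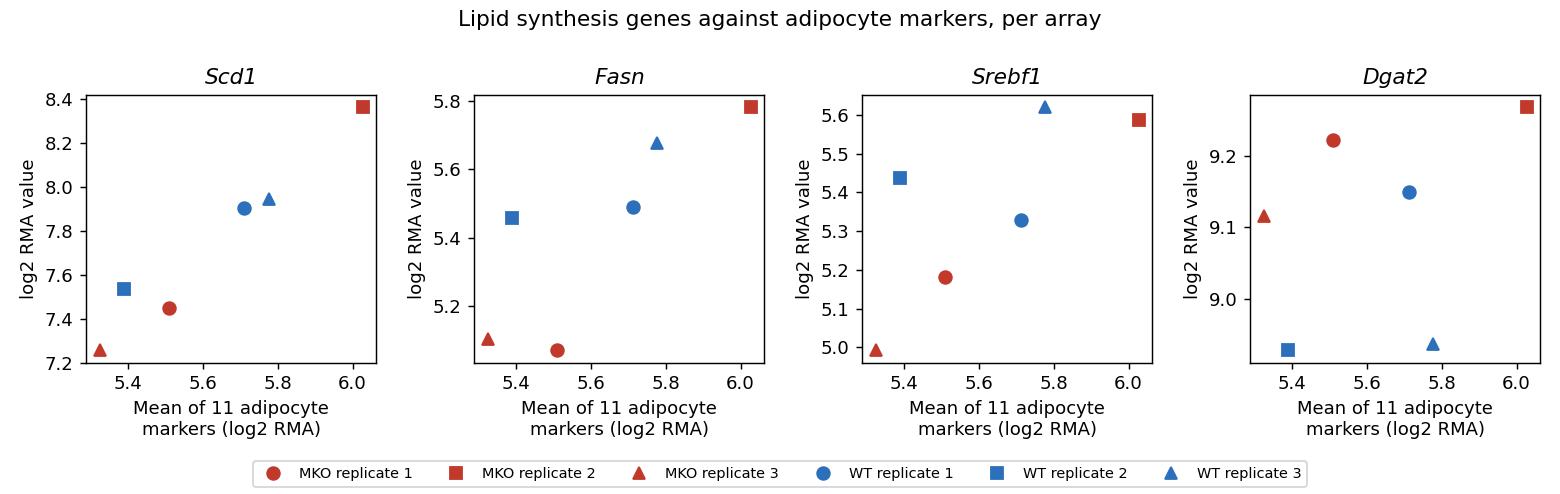
Log2 RMA value of Scd1, Fasn, Srebf1 and Dgat2 in each array against the mean of 11 adipocyte markers in the same array, MKO in red and WT in blue. Scd1 follows the marker mean (r = 0.976 over 6 arrays), Dgat2 does so less (r = 0.364).

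In triglyceride synthesis, Dgat2, which adds the last acyl chain, was at 9.22, 9.27 and 9.12 in MKO and at 9.15, 8.93 and 8.94 in WT. MKO replicate 3 lay just below WT replicate 1. The difference was 0.20 (SE 0.09, 95% interval 0.003 to 0.39, unadjusted p = 0.0467 in limma, adjusted p = 0.9997), and 9 of its 10 probe sets were higher. Its value stayed between 0.16 and 0.28 over 15 alternatives, but p reached 0.170 without a variance trend and lay between 0.0753 and 0.152 without MKO replicate 1, MKO replicate 2, WT replicate 2 or WT replicate 3. The second enzyme for that step, Dgat1, was at 4.67, 4.97 and 5.14 in MKO and at 4.93, 5.23 and 5.15 in WT, a difference of −0.18 (SE 0.16) with overlap. Of its 16 probe sets, 17318517 was at 3.29, 3.12 and 3.61 in MKO and at 5.13, 4.98 and 4.93 in WT (−1.67, SE 0.42). With bright probe sets alone Dgat1 differed by −0.0079. Gpam, the mitochondrial acyltransferase that begins glycerolipid synthesis, was at 9.58, 9.61 and 9.71 in MKO and at 9.73, 9.38 and 9.52 in WT (0.09, SE 0.09), and 16 of its 21 probe sets were higher.

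In cholesterol synthesis, the entry enzyme Hmgcs1 was at 7.46, 7.55 and 7.67 in MKO and at 7.56, 7.58 and 7.41 in WT. The groups overlapped and the difference was 0.04 (SE 0.10, 95% interval −0.18 to 0.27). Sqle, the squalene epoxidase, was at 4.07, 3.61 and 3.79 in MKO and at 3.78, 3.68 and 3.91 in WT (0.03, SE 0.17). Its groups overlapped too.

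Among the late enzymes, Dhcr7 and Hsd17b7 had higher values in every MKO array. Dhcr7, which makes cholesterol from 7-dehydrocholesterol, was at 4.82, 4.78 and 4.84 in MKO and at 4.65, 4.51 and 4.48 in WT. All MKO arrays were above the WT arrays, and the difference was 0.26 (SE 0.14, unadjusted p = 0.0892 in limma). Of its 15 probe sets 9 were higher, and without probe set 17485362 (1.44) the difference was 0.18 with the arrays still apart. With bright probe sets alone it was 0.10 (unadjusted p = 0.586 in limma). Hsd17b7, the ketosteroid reductase of C-4 demethylation, was at 4.60, 4.45 and 4.50 in MKO and at 4.36, 4.21 and 4.19 in WT. These groups did not overlap either, with a difference of 0.26 (SE 0.15, unadjusted p = 0.108 in limma). Without probe set 17229477 (1.47) it was 0.17 and the groups overlapped. Nsdhl, which acts in the same demethylation, differed by −0.15 (SE 0.17), and the sterol reductase Tm7sf2 by 0.07 (SE 0.15).

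None of the steps between passed the test. In the mevalonate segment, the kinases Mvk and Pmvk differed by −0.02 (SE 0.16) and −0.04 (SE 0.16), the decarboxylase Mvd by −0.20 (SE 0.14) and the isomerase Idi1, measured by 2 probe sets, by 0.22 (SE 0.16). Of the prenyl synthases, Fdps differed by −0.13 (SE 0.13) and Ggps1, which feeds protein prenylation, by −0.03 (SE 0.16). Squalene synthase, Fdft1, differed by −0.105 (SE 0.10) and the lanosterol synthase Lss by 0.10 (SE 0.16). The lanosterol demethylase Cyp51 was at 3.49, 4.50 and 4.53 in MKO and at 4.28, 4.43 and 3.55 in WT (0.09, SE 0.29). It had the widest interval of the set, from −0.53 to 0.71, and MKO replicate 1 and WT replicate 3 both lay near 3.5.

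The 551 probe sets of the 37 genes gave the same picture at finer grain. None passed an adjusted p of 0.05 in limma over 233753 probe sets (0 called, 0.0%), and the smallest adjusted p was 0.979. At an unadjusted p under 0.05 there were 26, or 4.72%, against 4.98% of all probe sets. Under 0.01 there were 5, or 0.907%, against 0.901%. Apart from those of Fads2 and Dgat1, these were Fasn probe set 17273371 at 4.87, 5.09 and 4.25 in MKO and 6.18, 5.89 and 6.10 in WT (−1.32, SE 0.35), Srebf1 probe set 17263544 (−1.68, SE 0.52) and Gpam probe set 17365752 (0.39, SE 0.11). Large differences in both directions came from dim probe sets, among them Acly probe set 17269551 (−1.88, SE 0.60), Fads3 probe set 17357446 (−1.70, SE 0.68) and Acaca probe set 17254397 (1.70, SE 0.62). Within Fasn, 18 probe sets were higher and 22 lower.

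**Figure D4:**
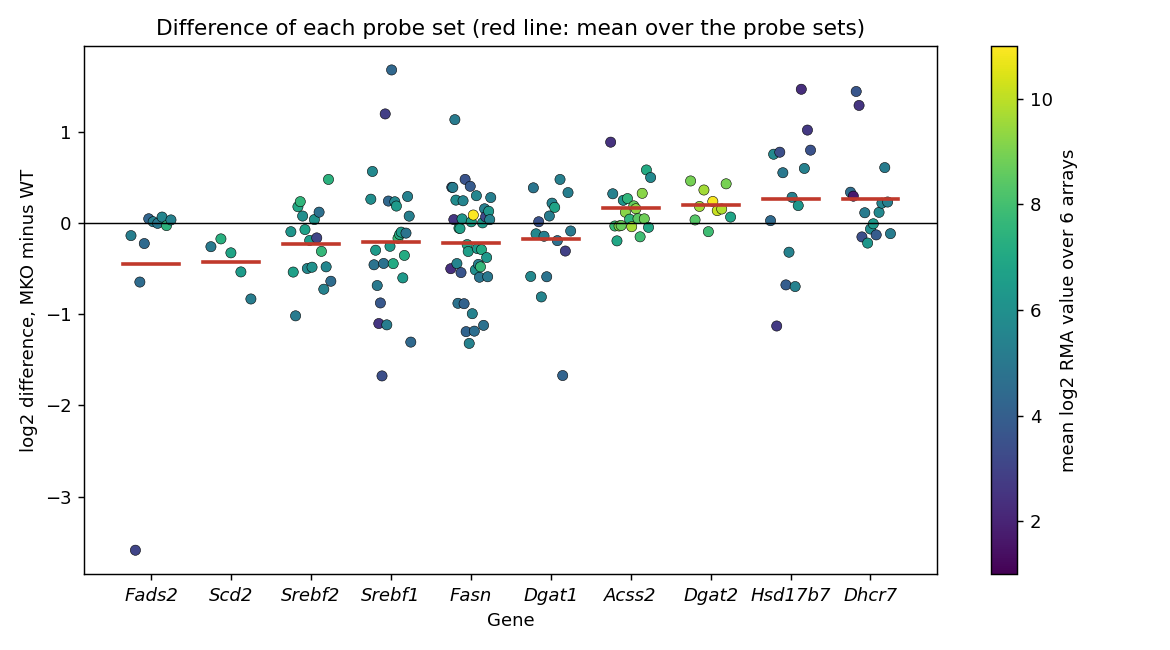
Log2 difference, MKO minus WT, of each probe set of 10 genes, coloured by its mean log2 RMA value over the 6 arrays, with a red line at the gene's mean. In Fads2 1 probe set lies at −3.59 and the other 9 between −0.65 and 0.07, whereas all 5 of Scd2 lie below 0 and 9 of 10 of Dgat2 above it.

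Of 45 other genes of sterol, fatty acid and glycerolipid metabolism, 40 were measured. Of these 13 had higher and 27 lower means in MKO. Their median was −0.06, against −0.01 over all genes and −0.038 over all genes above the median level. At an unadjusted p under 0.05, 1 was higher and 1 lower (5.0%, against 4.33% of all genes), and none passed the adjusted threshold. The groups did not overlap for 4 higher and 5 lower genes (22.5%, against 9.25% of all genes). Thrsp, a nuclear protein of lipogenic tissues, was at 6.01, 5.94 and 5.85 in MKO and at 5.40, 5.54 and 5.71 in WT. Its groups did not overlap, and the difference was 0.38 (SE 0.13, unadjusted p = 0.0129 in limma). Ptpla, now named Hacd1, a muscle dehydratase of fatty acid elongation, was at 6.47, 6.40 and 6.86 in MKO and at 6.90, 7.02 and 6.87 in WT (−0.35, SE 0.13). Its arrays were also apart, though MKO replicate 3 and WT replicate 3 nearly met. Sc5d, which acts just before Dhcr7, differed by −0.26 (SE 0.12), opposite in sign to Dhcr7, and by 0.14 when the median over its probe sets was used. Soat1, which esterifies cholesterol for storage, differed by −0.35 (SE 0.16).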

How the data were processed

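RNA from 3 MKO and 3 WT soleus muscles was measured on Affymetrix Mouse Gene 2.0 ST arrays, per the labels. The authors deposited log2 intensities, summarised by RMA in Affymetrix Expression Console per the submitters' processing notes. No version, genome build or annotation release was stated there. The design text names a gene-level export, but the table held 269751 rows with several per gene.

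Rows were named through the platform annotation: 233753 had 1 symbol and were used, 5106 had several and 30892 none. A gene's value was the mean of its probe sets, a median of 14 for these genes and 8 for all. MKO minus WT was fitted with limma 3.58.1 (variance trend, two-sided, R 4.3.3) over all 23152 genes, and over all probe sets with 1 symbol, with Benjamini-Hochberg adjustment; the fit was tested on simulated data. Python 3.11.15 served for tables and figures.

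The genes, lists and rules were chosen with earlier results of these data known. Each array's values were given for regulators, control-point enzymes and genes with an unadjusted p under 0.05 or arrays apart. Of other lists up to 4 genes with the smallest p were named. In the adipocyte list Adipoq and Ucp1 were named too, although they had the largest p there. Of probe sets, those with p under 0.01 and the 4 largest differences were named. Alternatives were limma without trend, robust or with a replicate block, median centring, quantile normalization, the median of probe sets, bright probe sets only, genes above the median level, a re-implemented local pooled error (LPE) test, which the series' design text names, and each array left out. The correlation with adipocyte markers and the fits without a probe set were added after seeing the data.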

Additional observations from a re-analysis of the deposited data

How the results depend on the processing

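None of the 37 genes passed the adjusted threshold under any of 15 alternatives, with 0.612 the smallest adjusted p (limma and the LPE test). At an unadjusted p under 0.05, the count of higher genes was 1 and became 0 without a variance trend, with median centring, with the replicate block and by the LPE test, and 3 with quantile normalization. The count of lower genes was 2 and became 1 with the median of probe sets and with bright probe sets only, and 3 by the LPE test. With an array left out the counts were 0 to 1 higher and 1 to 4 lower. Over all genes, the LPE test called 25, and leaving out an array 0 to 1. The median of the 37 lay between −0.09 and −0.02. That of the 33 above the median level was −0.105, against −0.038 over all genes above that level. The labels do not state that shared replicate numbers pair the animals. Deviations of same-numbered arrays correlated at −0.09, 0.09 and −0.24, and those of other pairs at −0.23 to 0.30. With so few arrays per group this cannot show whether animals were paired. Of the 37 genes the block moved Dgat2 across an unadjusted p of 0.05 (0.064 in limma), and of the other named genes Pdgfra (0.0502).

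Of the 37 genes, 18 kept their sign throughout and 19 did not; the cause was not tested. The sign turned with the median of probe sets for Srebf1 (0.0243), Scap (0.16), Acss2 (−0.0602), Me1 (−0.0095), Fasn (0.0129), Scd1 (0.0067), Sqle (−0.16) and, outside the set, Sc5d (0.14). It turned with bright probe sets for Me1 (−0.0112), Pmvk (0.13) and Fdft1 (0.066), with quantile normalization for Mvk (0.0302), Pmvk (0.0029) and Ggps1 (0.0030), with median centring for Mvk (0.0091), and by the LPE test for Hmgcs1 (−0.0163), Mvk (0.0396) and Ggps1 (0.10). With an array left out, values ranged from −0.31 to 0.0292 for Acaca, −0.18 to 0.43 for Cyp51, −0.27 to 0.0462 for Fads1, −0.16 to 0.17 for Ggps1, −0.0141 to 0.093 for Hmgcs1, −0.0361 to 0.16 for Insig2, −0.0061 to 0.19 for Lss, −0.12 to 0.19 for Me1, −0.14 to 0.11 for Mvk, −0.31 to 0.0187 for Nsdhl, −0.15 to 0.056 for Pmvk, −0.44 to 0.11 for Scd1, −0.10 to 0.13 for Sqle and −0.0037 to 0.15 for Tm7sf2. Dim probe sets limit Sqle, Elovl6, Cyp51 and Hsd17b7, whose means lay below the median gene.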
